A study of Mus musculus with 6 samples.

Results

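The core enzymes of de novo lipogenesis were examined as 9 genes, taken by name from the steps that turn cytosolic citrate and acetate into palmitate, together with the proteins that modulate these steps. They are the citrate exporter Slc25a1, the acetyl-CoA producers Acly and Acss2, the acetyl-CoA carboxylases Acaca and Acacb, the fatty acid synthase Fasn, the modulators Thrsp and Mid1ip1, and the acetoacetate-using ligase Aacs. All 9 were found through the RefSeq accessions of their probes, out of 22911 genes named on the array, and 17 of the 56605 probes belonged to them. All 17 probes were well above background on all 6 arrays, so all 9 genes were among the 14171 genes tested and none was lost to the filter on dim probes.

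The livers came from 6 male mice. LKO mice (n = 3) carried a liver-specific knockout of Elovl6, the elongase that lengthens palmitate to stearate, and control mice (n = 3) were titled Flox and did not carry the knockout. Every mouse of both groups ate a high-sucrose diet, D11725 from Research Diets, for 14 days and was fasted for 4 hours before the liver was frozen, so no group shows these genes on another diet. The Cre driver, the strain and the age are not given in the sources used here. Each liver was hybridized alone to a one-colour Agilent 8x60K mouse array, and the number of arrays limits the precision.

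In de novo lipogenesis, citrate leaves the mitochondria through Slc25a1 and is split by Acly into acetyl-CoA and oxaloacetate, and Acss2 makes further acetyl-CoA from acetate. Acetyl-CoA carboxylase turns acetyl-CoA into malonyl-CoA, from which Fasn builds palmitate with NADPH, and Elovl6 acts on that palmitate. In liver most of these genes are known as targets of SREBP-1c, which responds to insulin, and several also of ChREBP, which responds to sugar.

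The promoter windows of 4 of these genes are shown because a sterol regulatory element, an NF-Y box and a GC box are known elements of lipogenic promoters and these genes had lower values together in the LKO livers described next. Each window is from RefSeq (GRCm38.p6), runs 5′ to 3′ on the strand of the gene and ends shortly after the listed transcription start. Capitals mark matches on either strand to TCACNCCAC (sterol regulatory element), CACGTG (E-box), CCAAT (NF-Y box) or GGGCGG (GC box).
Fasn, chr11:120824498-120824797, strand minus: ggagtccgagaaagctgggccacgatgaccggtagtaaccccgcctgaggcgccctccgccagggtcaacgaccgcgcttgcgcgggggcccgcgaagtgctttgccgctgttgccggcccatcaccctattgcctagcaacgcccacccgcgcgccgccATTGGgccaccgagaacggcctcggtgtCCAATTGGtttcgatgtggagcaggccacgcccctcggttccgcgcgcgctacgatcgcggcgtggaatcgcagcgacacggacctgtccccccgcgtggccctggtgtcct
Thrsp, chr7:97417501-97417800, strand minus: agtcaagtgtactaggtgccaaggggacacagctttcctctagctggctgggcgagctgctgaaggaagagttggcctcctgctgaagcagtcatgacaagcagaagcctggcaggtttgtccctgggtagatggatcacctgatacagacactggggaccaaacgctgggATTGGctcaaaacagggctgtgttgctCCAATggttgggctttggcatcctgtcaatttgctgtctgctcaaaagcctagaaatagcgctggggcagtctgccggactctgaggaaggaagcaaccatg
Acly, chr11:100527951-100528250, strand minus: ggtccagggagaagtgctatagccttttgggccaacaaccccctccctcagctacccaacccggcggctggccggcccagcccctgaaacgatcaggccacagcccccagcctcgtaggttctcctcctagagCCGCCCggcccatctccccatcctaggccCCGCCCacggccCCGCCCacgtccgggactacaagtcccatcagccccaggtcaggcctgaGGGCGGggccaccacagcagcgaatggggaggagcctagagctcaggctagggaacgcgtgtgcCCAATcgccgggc
Acss2, chr2:155517793-155518092, strand plus: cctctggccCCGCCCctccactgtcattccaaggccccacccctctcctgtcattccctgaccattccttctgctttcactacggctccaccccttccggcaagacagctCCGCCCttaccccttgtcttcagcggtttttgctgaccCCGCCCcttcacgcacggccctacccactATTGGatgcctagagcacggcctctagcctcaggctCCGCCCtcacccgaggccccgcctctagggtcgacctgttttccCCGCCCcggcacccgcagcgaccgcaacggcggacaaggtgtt

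No window of the 9 genes held TCACNCCAC, which occurred in 1.24% of 32851 RefSeq promoter windows of the same length. These letters are only one form of the element and the window is short, so this says nothing of the factor. CCAAT was found in 6 of 9 windows, against 37.4% of all windows. Fasn held 3 matches, beginning at positions -90, -62 and -59 counted from the start site, of which the last 2 share bases, and Thrsp held 2, at -79 and -52. GGGCGG was found in 4 of 9 windows, against 35.7% of all windows, with 4 matches in Acly and 5 in Acss2. CACGTG was found in 1 window, that of Slc25a1, against 7.15% of all windows. The windows of Acaca and Acacb lie well inside their genes, downstream of the outermost start, and may not be the main promoters. The Fasn window also lies within its gene, downstream of the outermost start though nearer to it. Which start is used in these livers was not tested. Acacb and Fasn are among the 6 with CCAAT, and the windows of Acaca, Acacb and Fasn count among the 9 windows of every motif. A match is a description of the letters and not a shown binding site.

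Every one of the 9 genes had lower mean signal in LKO livers, against 49.2% of all genes tested. The fold ranged from 1.20-fold for Slc25a1 to 2.91-fold for Aacs, and 7 of the 9 were at least 2-fold lower, a size reached by 0.586% of all genes tested. That count was 1 (Acss2) with the slide row described below as a covariate, 6 with the mean over the probes of each gene, and 5 to 7 with 1 mouse left out. For 8 of the 9, every LKO liver lay below every control liver, against 9.21% of all genes tested. The median log2 change of the 9 genes was -1.42, against 0.0031 over all genes tested.

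None of the 9 changes passed the test. Limma with Benjamini-Hochberg adjustment over all genes gave adjusted p between 0.162 and 0.384, and 0 of 9 were under 0.05, against 0.0141% of all genes tested (2 genes). All 9 had an unadjusted p under 0.05 and were lower, which 5.6% of all genes tested were (794 lower and 788 higher, or 1000 lower and 523 higher when arrays were scaled to their medians). With trend and robust eBayes 0 of 9 passed as well. An exact permutation test of 3 mice against 3 cannot go below p = 0.1, two-sided, which was reached by all members but Aacs (exact p = 0.2). Because whole liver was measured, fewer cells of a type and less RNA per cell cannot be told apart.

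**Figure D1:**
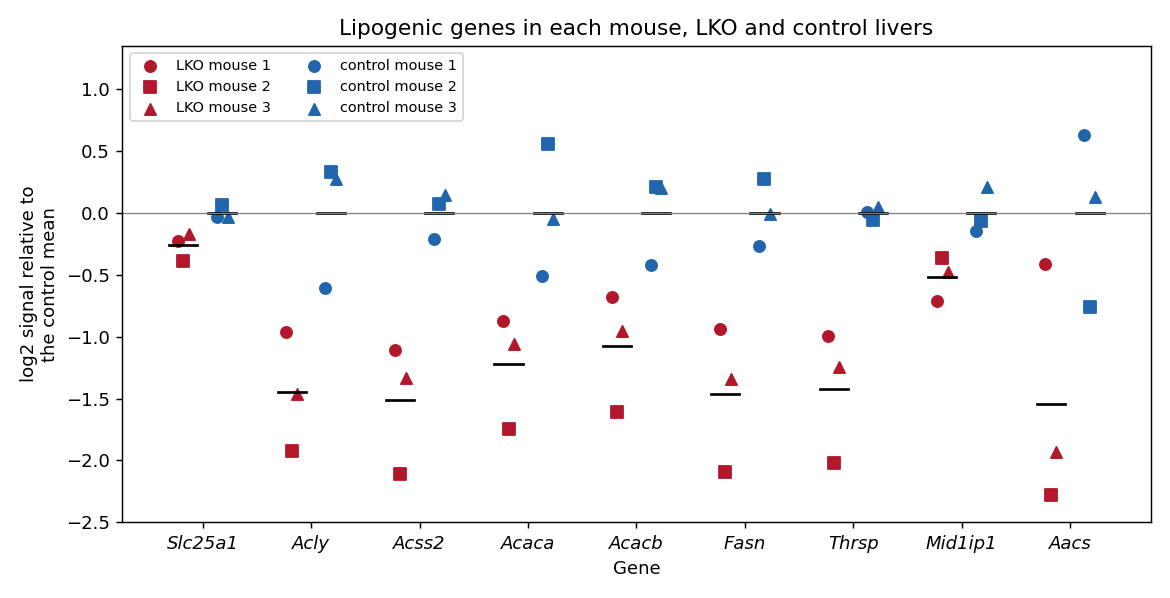
Log2 signal of each gene relative to the mean of its 3 controls (vertical axis), one point per mouse, LKO left of control, with the group mean as a bar. In 8 of 9 genes the 3 LKO points lie below the 3 control points, and Aacs is the gene whose groups overlap.

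Values below are processed signals after scaling, that is, brought to a common 75th percentile of 281 signal units on every array. They compare mice for 1 probe and not genes with each other. Elovl6, the deleted gene, had 64.2, 94.1 and 102.4 signal units in LKO mice 1, 2 and 3, against 5999, 12089.7 and 6415 in control mice 1, 2 and 3 (91.0-fold lower, limma adjusted p = 0.00279), so each liver matched its label.

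Slc25a1, which exports citrate from the mitochondrial matrix in exchange for malate, was the member with the smallest difference. It measured 5077, 4540.0 and 5269 signal units in LKO mice 1, 2 and 3, against 5807, 6203 and 5791 in control mice 1, 2 and 3. The groups did not overlap, and the control mice lay close together. The log2 change was -0.26 ± 0.09 (SE, n = 3 per group), or 1.20-fold lower, with limma adjusted p = 0.380.

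Acly, ATP citrate lyase, makes the bulk of cytosolic acetyl-CoA from citrate. It measured 20337, 10425 and 14411.5 signal units in LKO mice 1, 2 and 3, against 26071, 49909 and 47839 in control mice 1, 2 and 3. The control liver of mouse 1 was well under the other 2 controls and nearest to the LKO livers. This made Acly 2.73-fold lower with LKO, at a log2 change of -1.45 ± 0.33 (SE) and a limma adjusted p of 0.230.

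Acss2, the cytosolic and nuclear acetyl-CoA synthetase, uses acetate. It measured 5972, 2969 and 5106 signal units in LKO mice 1, 2 and 3, against 11075, 13468 and 14193 in control mice 1, 2 and 3. Both groups were well apart, and LKO mouse 2 was the lowest. Acss2 was 2.86-fold lower (log2 change -1.52 ± 0.26, SE, limma adjusted p = 0.162).

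The acetyl-CoA carboxylases are encoded by Acaca, whose cytosolic enzyme supplies malonyl-CoA for synthesis, and Acacb, whose enzyme sits at the mitochondrial outer membrane, where malonyl-CoA inhibits carnitine palmitoyltransferase 1. Acaca measured 6460.3, 3523 and 5679.5 signal units in LKO mice 1, 2 and 3, against 8292.5, 17408 and 11403 in control mice 1, 2 and 3. Acacb measured 4419.7, 2321 and 3659 signal units in LKO mice 1, 2 and 3, against 5297, 8192 and 8147 in control mice 1, 2 and 3. In both genes control mouse 1 was the lowest control and LKO mouse 2 the lowest of all 6.

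The log2 change of Acaca was -1.22 ± 0.32 (SE), or 2.34-fold lower, with limma adjusted p = 0.278. Acacb was 2.11-fold lower by its brightest probe (-1.08 ± 0.28, SE, limma adjusted p = 0.267). The change in the ratio of Acaca to Acacb was -0.15 ± 0.18 (SE) on the log2 scale, and an exact permutation test gave p = 0.7. That value depends on the probes, since with the mean over the probes of each gene it was -0.76 (exact permutation p = 0.1, the smallest possible). It also depends on single controls, being -0.27 without control mouse 3 (exact permutation p = 0.1) and 0.0286 without control mouse 2 (exact permutation p = 0.7).

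Among the 6 of these genes with several probes, Acacb was the one whose probes disagreed in direction. Its second probe, A_66_P110803, which carries the same accession, measured 1871, 1881 and 1866 signal units in LKO mice 1, 2 and 3, against 2025, 1807 and 1713 in control mice 1, 2 and 3. These groups overlapped, and the log2 change was 0.02 ± 0.09 (SE, limma over all probes, adjusted p = 0.957). Taken as the mean of both probes, the log2 change of Acacb was -0.53. The difference between the 2 probes in their log2 change was -1.10, with exact permutation p = 0.1, the smallest possible, and this pair was chosen after its values were seen. The files do not give the position of either probe in the transcript, and which one follows the main liver transcript was not tested.

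Fasn, the multifunctional synthase that ends the pathway in palmitate, measured 47589, 21378 and 35986 signal units in LKO mice 1, 2 and 3, against 76039.8, 110560 and 90922 in control mice 1, 2 and 3. The groups were apart, and LKO mouse 2 was the lowest of the 6. Fasn was 2.75-fold lower (log2 change -1.46 ± 0.30, SE, limma adjusted p = 0.199).

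Thrsp, also called Spot 14, and its paralogue Mid1ip1, also called MIG12, are small proteins without known catalytic activity. MIG12 binds acetyl-CoA carboxylase and promotes its polymerization, and Spot 14 can pair with it. Thrsp measured 14657, 7171 and 12286 signal units in LKO mice 1, 2 and 3, against 29251, 28030.5 and 30190.3 in control mice 1, 2 and 3. Its controls were the least spread of the 9 genes, with an SD of 0.05 on the log2 scale. Thrsp was 2.68-fold lower (log2 change -1.42 ± 0.25, SE, limma adjusted p = 0.162).

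Mid1ip1 measured 2472, 3146 and 2910.0 signal units in LKO mice 1, 2 and 3, against 3656, 3863 and 4686 in control mice 1, 2 and 3. The groups did not overlap, and LKO mouse 1, not mouse 2, was the lowest. Mid1ip1 was 1.43-fold lower (log2 change -0.52 ± 0.14, SE, limma adjusted p = 0.278). The change in the ratio of Thrsp to Mid1ip1 was -0.90 ± 0.41 (SE) on the log2 scale, with exact permutation p = 0.1, the smallest possible, and p = 0.4 after adjustment over the 4 pairs compared. Without LKO mouse 2 that difference was -0.53, and without LKO mouse 1 it was -1.22.

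Aacs, acetoacetyl-CoA synthetase, activates acetoacetate in the cytosol for lipid synthesis. It measured 2259, 621.0 and 786.0 signal units in LKO mice 1, 2 and 3, against 4650.0, 1781 and 3286 in control mice 1, 2 and 3. LKO mouse 1 lay above control mouse 2, so the groups overlapped, and the spread within both groups was the widest of the 9 genes, at SD 0.99 in LKO and 0.70 in control livers on the log2 scale. Aacs was 2.91-fold lower (log2 change -1.54 ± 0.55, SE, limma adjusted p = 0.384).

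For the remaining pairs, as for Acaca and Acacb by their brightest probes, the change was smaller than its SE. The change in the ratio of Acss2 to Aacs was 0.03 ± 0.61 (SE, log2 scale, exact permutation p = 1) and that of Acly to Acss2 was 0.07 ± 0.22 (exact permutation p = 0.8).

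On the processed signals, probes of the same gene otherwise gave like values. Of the 17 probes, 16 were lower in LKO livers. The 4 probes of Acaca lay between -1.37 and -1.22, although their signals differed widely, the dimmest (A_55_P2084703) having 47.5, 31.4 and 46.7 signal units in LKO mice 1, 2 and 3, against 64.4, 156 and 105 in control mice 1, 2 and 3. The 2 probes of Acly carry different accessions, NM_001199296 and NM_134037, and had log2 changes of -1.45 ± 0.33 and -1.60 ± 0.31 (SE). Those of Acss2 (-1.52 and -1.53), Thrsp (-1.42 and -1.40) and Slc25a1 (-0.26 and -0.25) were close to each other. In the limma fit over 27950 probes none of the 17 passed, against 0.0215% of all probes. With normexp background correction probes were further apart. The 4 of Acaca lay between -1.24 and -0.65, the dimmest at -0.65 in place of -1.31, and the 2 of Acly were at -1.49 and -1.08.

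**Figure D2:**
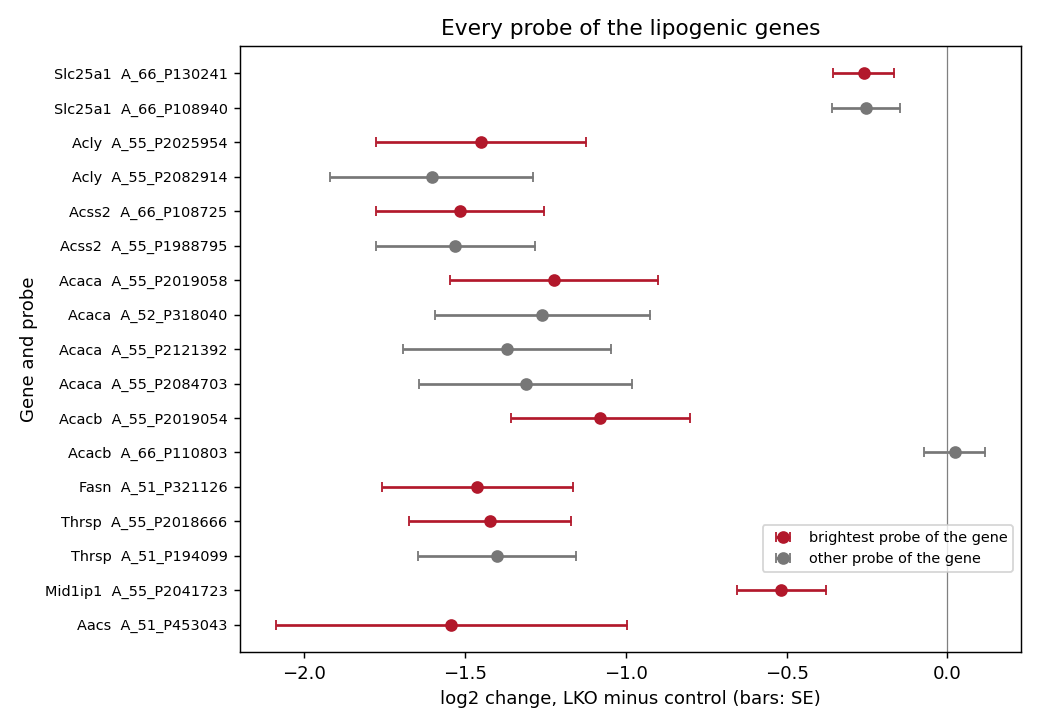
Log2 change (LKO minus control, horizontal axis) with SE for each of the 17 probes, grouped by gene down the page, the brightest probe of each gene in red and the others in grey. All lie left of 0 but the second probe of Acacb, at 0.02.

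The LKO mice differed among themselves in the same order across most of these genes. Averaged over the 9 genes, LKO mice 1, 2 and 3 lay -0.77, -1.61 and -1.11 from the control mean on the log2 scale, and control mice 1, 2 and 3 lay -0.17, 0.07 and 0.10 from it. LKO mouse 2 was the lowest of all 6 mice in 8 of the 9 genes, against 17.9% of all genes tested. In 7 of the 9 genes LKO mouse 2 was below mouse 3 and mouse 3 below mouse 1, an order found in 16.5% of all genes tested. Slc25a1 and Mid1ip1 were the exceptions.

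All 6 arrays were on 1 slide and came from 1 scan. The array identifiers in the headers end in 2 position numbers that the headers do not name, and the first was taken as the slide row. By it LKO mouse 1 shared a row with the 3 controls, and LKO mice 2 and 3 were in the other row. Within the shared row, LKO mouse 1 differed from the mean of the controls by between -1.10 (Acss2) and -0.22 (Slc25a1) on the log2 scale, with a median of -0.87, and lay below every control in 8 of the 9 genes, as it did in 25.6% of all genes tested. With the slide row as a covariate the limma adjusted p values lay between 0.760 and 0.9999. Beyond LKO mouse 1, slide row and genotype cannot be told apart.

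**Figure D3:**
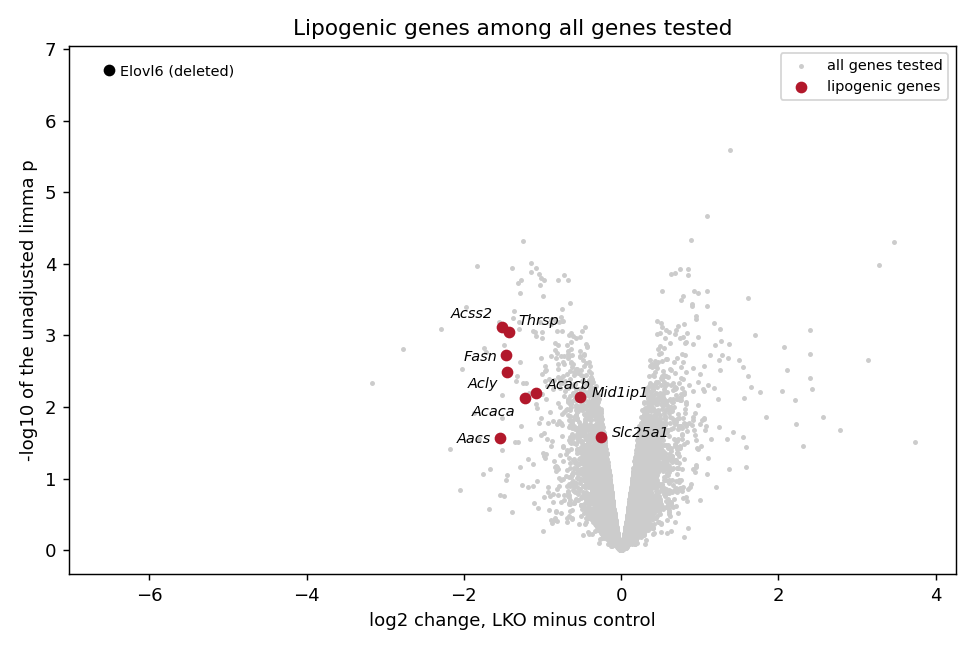
Log2 change (LKO minus control, horizontal axis) against -log10 of the unadjusted limma p (vertical axis) for 14171 genes in grey, with the 9 lipogenic genes in red and Elovl6 in black. Of the red points 7 lie at or beyond a log2 change of -1, and none reaches the height at which adjusted p is under 0.05.

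By size of the decrease, Aacs stood 19th, Acss2 22nd, Fasn 28th, Acly 30th and Thrsp 31st of 14171 genes, whereas Mid1ip1 stood 387th and Slc25a1 1299th. The genes outside the list whose values were nearest to the mean of the 9 over the 6 arrays, by root mean square difference of log2 values relative to the control mean, were Gpam (0.11), Aqp8 (0.13), Rdh16 (0.14), Scd1 (0.14), Scd3 (0.15), Fdps (0.16), Pklr (0.17) and Rdh11 (0.18). Predicted genes and Gm or Rik names were left out of that ranking. Of the 9 themselves only Acacb (0.14) was as near, and Slc25a1 (0.67), Aacs (0.65) and Mid1ip1 (0.58) lay farthest from their mean. Gpam encodes the first acyltransferase of glycerolipid synthesis, Scd1 and Scd3 stearoyl-CoA desaturases, Fdps farnesyl diphosphate synthase and Pklr liver pyruvate kinase. Gpam measured 11763, 7474 and 9779 signal units in LKO mice 1, 2 and 3, against 16869, 23601 and 20443 in control mice 1, 2 and 3. Scd1 and Scd3 are closely related genes, and whether their probes share signal was not tested.

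The steps around the core pathway were described with lists of genes chosen from general knowledge, with earlier results of these data known. The first list held 27 genes that bring sugar carbon and NADPH into the pathway, process its product or regulate it. In LKO livers 25 of them, the deleted Elovl6 included, had lower values and 2 higher, against 49.2% lower among all genes tested. The median log2 change of the 27 was -0.58, and 1, Elovl6, passed over all genes. Those with the next smallest p were Pgd, a pentose phosphate enzyme that makes NADPH (2.21-fold lower, limma adjusted p = 0.100), Cs, citrate synthase (1.75-fold lower, adjusted p = 0.100), and Elovl5, an elongase of polyunsaturated fatty acids (2.05-fold lower, adjusted p = 0.108). Cs measured 8489.8, 7999 and 7054 signal units in LKO mice 1, 2 and 3, against 12512, 14558 and 14026 in control mice 1, 2 and 3, so that both the gene of the enzyme that makes citrate and that of its exporter had lower values without overlap. Chosen after their values were seen, malic enzyme Me1 and G6pdx, further sources of NADPH, had log2 changes of -1.74 ± 0.34 and -2.03 ± 0.45 (SE), and Pnpla3, a lipid droplet protein, -2.78 ± 0.54 (SE).

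Regulators in that list were also measured, and those given were chosen after their values were seen. Srebf1, which encodes SREBP-1, had a log2 change of -0.16 ± 0.14, Mlxipl, which encodes ChREBP, 0.02 ± 0.15 and Nr1h3, which encodes LXR alpha, 0.08 ± 0.09 (SE), with overlapping groups. Insig1 and Insig2, whose products hold SREBP in the endoplasmic reticulum, were at -0.58 ± 0.15 and -0.59 ± 0.16 (SE), without overlap. Some enzymes of the list lay near 0 as well, such as Dgat2 (-0.14 ± 0.09, SE) and Pcx (-0.17 ± 0.10, SE), and the difference between regulators and enzymes was not tested.

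The next list held enzymes that modify the 9 gene products after translation. It also held the regulatory subunits of AMP-activated protein kinase and Stk11, a kinase that acts on it. Most of its genes were near 0. Of the 9 genes of this list, 6 were lower and 3 higher, and the median log2 change was -0.15. Over all genes 0 passed, with 2 lower at an unadjusted p under 0.05. Prkaa2 and Prkaa1, the catalytic subunits of AMP-activated protein kinase, which inhibits acetyl-CoA carboxylase, had log2 changes of -0.45 ± 0.19 and -0.33 ± 0.14 (SE), with overlapping groups. Hlcs, the ligase that attaches biotin to the carboxylases, was at -0.21 ± 0.12 and Prkag2, a regulatory subunit of the kinase, at -0.16 ± 0.09 (SE).

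The tested genes of the list around malonyl-CoA and acetyl-CoA were Mlycd, Acot12, Cpt1a, Cpt2, Acss1 and Acss3. The list thus joins enzymes that remove these products with synthetases and carnitine palmitoyltransferases. Its median log2 change was -0.07, with 4 of 6 tested lower, 2 higher and 0 past the threshold. At an unadjusted p under 0.05 there was 1, Acss3, a mitochondrial acyl-CoA synthetase, 2.12-fold lower and bright enough to exceed background in only 1 LKO liver. Cpt1a was at 0.13 ± 0.13, the malonyl-CoA decarboxylase gene Mlycd at -0.09 ± 0.09 and Acot12, which hydrolyses acetyl-CoA, at 0.05 ± 0.10 (SE).

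The separate mitochondrial route of fatty acid synthesis, which makes the precursor of lipoic acid, had a median log2 change of 0.01, with 3 of 6 genes lower, 3 higher and 0 past the threshold, also at an unadjusted p under 0.05. Mcat, its malonyl transferase, was at -0.15 ± 0.09, Cbr4 at 0.08 ± 0.08, Ndufab1, its acyl carrier protein, at 0.04 ± 0.08 and Oxsm at 0.04 ± 0.11 (SE).

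Among 8 carriers of citrate, malate, pyruvate and monocarboxylates, 6 were lower and 2 higher, with 0 past the threshold and a median log2 change of -0.11. Slc13a5, which imports citrate from blood across the plasma membrane, ran opposite to Slc25a1. It measured 118, 286 and 509 signal units in LKO mice 1, 2 and 3, against 45.4, 55.4 and 45.8 in control mice 1, 2 and 3. Every LKO liver was above every control liver, and Slc13a5 was 5.30-fold higher (log2 change 2.41 ± 0.49, SE, limma adjusted p = 0.199). The mitochondrial pyruvate carrier gene Mpc1 was at -0.37 ± 0.10, the monocarboxylate transporter Slc16a1 at -0.42 ± 0.15 and the oxoglutarate carrier Slc25a11 at -0.12 ± 0.09 (SE).

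Among genes of ketone body metabolism, Acat1 was at -0.43 ± 0.15 and Bdh1 at -0.22 ± 0.10 (SE), and neither passed the threshold. Of 8 fasting-responsive genes, 5 were lower and 3 higher, with 0 past the threshold and a median of -0.60. Pdk4, whose product phosphorylates and so shuts off pyruvate dehydrogenase, differed 2.62-fold, lower in LKO livers without overlap (limma adjusted p = 0.100). The groups overlapped for G6pc (-1.18 ± 0.50), Fgf21 (-0.80 ± 0.38) and Ppargc1a (-0.41 ± 0.26, SE).

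**Figure D4:**
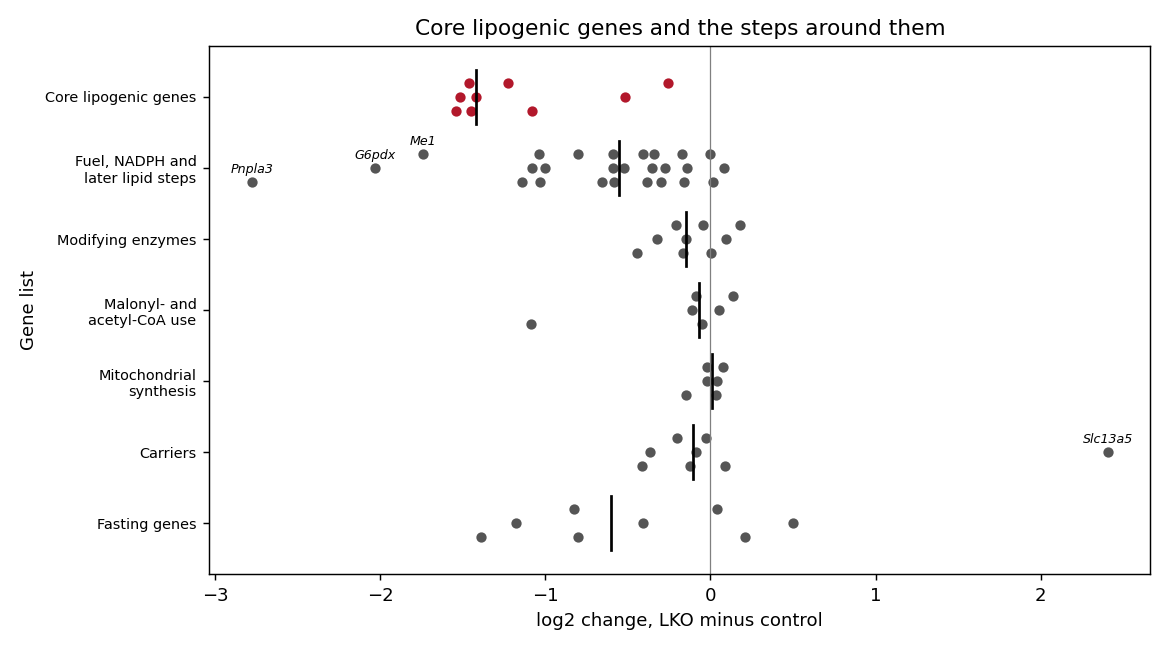
Log2 change (LKO minus control, horizontal axis) of each gene of the 9 core genes in red and of 6 surrounding lists in grey, 1 point per gene, with the median as a bar and Elovl6 left out. The core genes lie left of 0 with 7 of 9 beyond -1, and Slc13a5 lies at 2.41 on the right.

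Markers checked the tissue and the other cells it could hold. All 8 hepatocyte markers were well above background, 7 of them higher and 1 lower in LKO livers, and their summed signal was 1358270 to 1434060 units in LKO and 1290510 to 1339680 in control livers. Adipocytes express several of the 9 genes strongly. Of 6 adipocyte markers, 3 were tested, 2 of them lower and 1 higher. The summed signal of all 6, in which leptin (Lep) has a large part, was 565 to 929 units in LKO and 482 to 1790.2 in control livers. Adiponectin (Adipoq) measured 3.70, 22.2 and 4.66 signal units in LKO mice 1, 2 and 3, against 32.1, 7.03 and 150 in control mice 1, 2 and 3, and was above background in 1 LKO and 2 control livers. The part of adipocytes in the values of the 9 genes was not tested. Of 4 neutrophil markers tested, S100a8, S100a9 and Retnlg were higher in LKO livers and Elane was lower. Those 3 did not overlap and had an unadjusted limma p under 0.05, against 8.11% of all genes tested with every LKO liver above every control and 5.56% higher at that p. The summed signal of the list, in which Elane has a large part, was 2350 to 5882 units in LKO and 1973 to 2373 in control livers, with S100a8 at 205, 509 and 1121 signal units in LKO mice 1, 2 and 3, against 59.3, 130 and 97.8 in control mice 1, 2 and 3. The part of these cells in the values of the 9 genes was not tested.

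Sums of the other marker lists take in untested markers. Of these lists, 7 of 7 Kupffer cell markers were higher (summed signal 18095 to 21334 in LKO and 14765 to 19319 in control livers), and so were 4 of 4 erythroid markers tested (86897 to 140483 and 78834 to 110819). Among all genes tested 49.2% were lower. Marco was the only Kupffer cell marker whose groups did not overlap, and for every erythroid marker tested they overlapped. Lymphocyte and plasma cell markers were lower for 3 of 5 tested (1402 to 1671 in LKO and 1330 to 1479 in control livers), endothelial markers for 3 of 6 (11894 to 13154 and 11374 to 12716), stellate markers for 3 of 6 (14764 to 16326 and 14197 to 15388) and bile duct markers for 2 of 3 tested (217 to 326 and 218 to 323). None of these markers passed over all genes. Mpo and Cd8a were above background on no array.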

How the data were processed

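Liver RNA of 3 LKO and 3 control mice was measured on one-colour (Cy3) Agilent arrays, 1 mouse per array. The scanner output came from Agilent Feature Extraction 11.5.1.1, per the submitters' processing notes. The intensity used here is the column named processed signal, per the file headers, and the sources used here do not spell out which corrections it holds. Median foreground and median background intensities were deposited beside it. The authors' value table equals that signal times 1 constant per array, between 2.08 and 2.48. It is linear, has the same direction and no centring, and the sources used here do not say how the constants were chosen. Its column medians were 63.7, 59.1 and 62.2 in LKO mice 1, 2 and 3 and 55.3, 62.9 and 61.5 in control mice 1, 2 and 3.

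Accessions were matched without versions to RefSeq (GRCm38.p6), which gave 32994 of 56605 probes 1 symbol, 0 several and 23611 none. The array headers name an earlier build, so the only coordinates printed are those of the RefSeq promoter windows. Between 52.1% and 56.6% of 59305 spots were well above background, and 0 were saturated. Control spots and 64 to 111 outlier spots per array were left out, and spots of a probe were averaged. Processed signals were log2 transformed after division by the 75th percentile of their own array (265 to 298 units). A gene was its brightest probe over all arrays. Testing required a probe well above background in all 3 mice of either group and no fewer than 2 values in each.

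The comparison used limma 3.58.1 (lmFit, then eBayes) under R 4.3.3, two-sided, without a block, with Benjamini-Hochberg adjustment over all 14171 genes and a threshold of 0.05. The fit was tested on simulated data. Ratios of 4 gene pairs were compared by exact two-sided permutation over the 6 mice. Where nothing says that mice came from separate litters or days, p-values measure only the spread between these mice. The 9 genes, the lists and the tests were chosen with earlier results of these data known. Named genes were the 9, Elovl6, up to 4 genes per surrounding list by smallest p after any past the threshold, and the 8 nearest in pattern. Single marker genes given with values, and the other genes marked so in the text, were picked with their values in view. The foreground for normexp (offset 50) was the median signal, the one that the files hold, in place of the mean that was planned. Protein sequences were not used here, and some genes of the ketone body and marker lists are not reported here.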

Additional observations from a re-analysis of the deposited data

How the results depend on the processing

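Under all 17 alternative settings, which were another scaling, background correction, filter, probe rule, variance model, block or covariate or 1 mouse left out, each of the 9 genes kept a lower value in LKO livers, 0 passed, and adjusted p lay between 0.0696 (Thrsp without LKO mouse 1) and 0.9999. The number of the 9 whose groups did not overlap was 8 or 9 wherever it was computed. Many of these settings could not change direction or overlap. The value table with percentile scaling returns the main values, and the filters, variance model and replicate block leave each log2 change as it was. Where groups do not overlap, leaving out a mouse can neither turn the sign nor make them overlap. With the slide row as a covariate, which sets LKO mouse 1 alone against the controls, the median log2 change of the 9 was -0.87, and Aacs was at -0.41. The value table without further scaling was added after seeing the data. The count of genes past the threshold, 2 in all, was 1 without a filter on dim probes, with all 6 arrays above background required and with the slide row, 13 with trend and robust eBayes, and between 1 and 15 with 1 mouse left out, the highest without LKO mouse 1. The cause was not tested. The labels do not say whether replicate numbers pair the mice. Same-numbered mice had correlations of 0.04, -0.05 and -0.07 in their deviations from the group means, which cannot show whether mice were paired. With the replicate block 3 genes passed, and the 9 genes had limma adjusted p between 0.208 and 0.571. Pair differences turned sign where they were small. Acss2 against Aacs was -0.0242 with normexp and between -0.40 and 0.44 with 1 mouse left out. Acly against Acss2 was -0.0035 with the mean over probes and between -0.13 and 0.20 with 1 mouse left out. Acaca against Acacb was between -0.27 and 0.0286 with 1 mouse left out (the highest without control mouse 2), and -0.76 with the mean over probes, which takes in the second Acacb probe. The probes are bright and above background, so signal over background limits only the dim Acaca and Acly probes.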

Other observations

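Adipocyte transcripts differed widely among the mice of each group. Cfd, the gene of adipsin, measured 34.4, 310.2 and 47.7 signal units in LKO mice 1, 2 and 3, against 266, 17.0 and 900.1 in control mice 1, 2 and 3, and Retn, the gene of resistin, 17.1, 53.9 and 16.0 in LKO mice 1, 2 and 3, against 54.0, 11.0 and 169 in control mice 1, 2 and 3. Both had the same order of mice as Adipoq within the controls, with mouse 3 highest and mouse 2 lowest. Leptin (Lep) did not follow it, at 426, 488 and 415 signal units in LKO mice 1, 2 and 3, against 435, 397 and 415 in control mice 1, 2 and 3.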
